A study of Mus musculus with 6 samples.

Results

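The expression of 10 genes that set the pace of the G1 phase of the cell cycle or mark the start of DNA replication was compared between adrenal glands of BPH mice, a hypertensive strain, and BPL mice, a hypotensive strain. They are the D-type cyclins Ccnd1, Ccnd2 and Ccnd3, their kinase partner Cdk4, the CDK inhibitors Cdkn1a, Cdkn1b and Cdkn1c, the transcription factor Myc, the replication clamp Pcna and the helicase subunit Mcm6. Members were all probe sets whose only gene symbol in the platform annotation is 1 of these 10 genes, which gave 14 of the 12488 probe sets on the array. Ccnd1, Cdk4, Cdkn1a and Cdkn1b had a pair of probe sets each. Of the 14, 11 were bright enough to be tested, covering 8 of the 10 genes. Cdkn1b (both probe sets) and Mcm6 fell among the dim probe sets that were not tested.

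Each group held 3 arrays of adrenal RNA from male mice aged 12 weeks. Strain is the only difference between the groups that the labels give. Signals of cell type markers and a sign of RNA quality also differed between the strains, as given below. Both strains come from selective breeding on blood pressure, so they differ at many loci and neither is an unselected control. Whether each array held the RNA of a single one of the 3 mice per strain is not stated, so the p-values reflect only how far these 6 samples spread, and part of that may be technical. Signals are Affymetrix values per probe set, scaled here to a common array median. A signal cannot be compared between different probe sets, and in whole glands fewer cells of a type and less RNA per cell cannot be told apart.

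D-type cyclins accumulate when growth signals reach a cell and bind CDK4 or CDK6, and the active kinase phosphorylates the retinoblastoma protein so that E2F factors can switch on replication genes. The CDK inhibitors of the Cip/Kip family, CDKN1A (p21), CDKN1B (p27) and CDKN1C (p57), bind cyclin and kinase complexes and restrain this step. Cdkn1a is a classic target of p53 and is also induced by many stresses, and Cdkn1c is an imprinted gene expressed in the adrenal cortex. PCNA is the ring that holds DNA polymerase on its template and also serves DNA repair, and MCM6 is part of the helicase that opens the double helix.

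The sequences upstream of Pcna and Cdkn1a are shown because these were the 2 genes with a probe set that passed the test. They are the 250 bases before the annotated start in RefSeq (GRCm38.p6), 5′ to 3′ on the gene's strand, and Cdkn1a has 2 annotated starts. The promoter table held 6 of the 10 members. Capitals mark matches, on either strand, to the GC box (GGGCGG), the CCAAT box (CCAAT), a heat shock element (GAANNTTC) or the half-site bound by p53, which was added to the search after the sequences had been seen.
Pcna, chr2:132253181-132253430, minus strand: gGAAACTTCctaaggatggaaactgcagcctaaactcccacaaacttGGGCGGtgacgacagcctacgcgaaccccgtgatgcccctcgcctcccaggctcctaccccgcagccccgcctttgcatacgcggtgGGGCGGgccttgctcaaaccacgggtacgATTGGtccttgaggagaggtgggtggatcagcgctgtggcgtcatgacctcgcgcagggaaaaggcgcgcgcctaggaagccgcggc
Cdkn1a, upstream start, chr17:29090729-29090978, plus strand: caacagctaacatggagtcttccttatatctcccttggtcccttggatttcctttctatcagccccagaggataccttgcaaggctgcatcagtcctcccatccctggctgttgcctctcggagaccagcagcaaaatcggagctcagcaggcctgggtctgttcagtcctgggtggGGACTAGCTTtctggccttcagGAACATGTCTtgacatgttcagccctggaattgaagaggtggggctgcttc
Cdkn1a, downstream start, chr17:29093519-29093768, plus strand: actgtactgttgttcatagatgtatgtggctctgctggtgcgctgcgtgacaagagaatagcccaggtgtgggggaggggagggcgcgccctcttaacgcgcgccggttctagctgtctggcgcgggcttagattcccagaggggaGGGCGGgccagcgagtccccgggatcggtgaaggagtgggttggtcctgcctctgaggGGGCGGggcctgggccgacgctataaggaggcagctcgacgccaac
The Pcna window held 2 GC boxes, 1 CCAAT box and 1 heat shock element match, 249 bases before the start. The upstream Cdkn1a window held 2 matches to the p53 half-site, 73 and 51 bases before the start, and the downstream window 2 GC boxes, 104 and 46 bases before it. Of all 32851 windows of the same length in the table, 32.7% held a GC box, 33.8% a CCAAT box, 6.69% a heat shock element match and 7.13% a p53 half-site. TATAAA (12.4% of windows), the E2F core TTCCCGC (3.82%), the AP-1 site TGANTCA (6.75%), the E box CACGTG (6.02%) and the CRE TGACGTCA (1.55%) had no match in these 3 windows. No overlap between different motifs occurred in them. A match is only a run of letters, and the arrays do not measure binding.

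Pcna and 1 of the 2 Cdkn1a probe sets were higher in BPH, and the other 9 tested probe sets, among them all D cyclins, Cdk4, Cdkn1c and Myc, did not pass the test. Pcna rose about 1.93-fold in mean signal and the called Cdkn1a probe set 3.53-fold. These were 2 of 11 tested member probe sets (18.2%), both higher, against 4.11% of all 7453 tested probe sets that were called, 3.18% higher and 0.926% lower. Of the 11 log2 differences 10 were above 0, as were 60.5% of all tested probe sets. The median difference of the 11 was 0.23 on the log2 scale and that of all tested probe sets 0.08. In 4 of the 11 (36.4%) every BPH array lay above every BPL array, against 19.7% of all tested probe sets. In 0 of the 11 did every BPH array lie below every BPL array, against 7.97%, and 27.6% of all tested probe sets separated the strains in either direction. The 10 genes were chosen with earlier results of these arrays known, so these shares describe the members and are no test of them as a set. The called Cdkn1a probe set counts in both the 18.2% and the 36.4%. Its BPL mean alone lay under the brightness limit of 9.68 on the log2 scale, so it was tested only through its BPH signals.

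**Figure D1:**
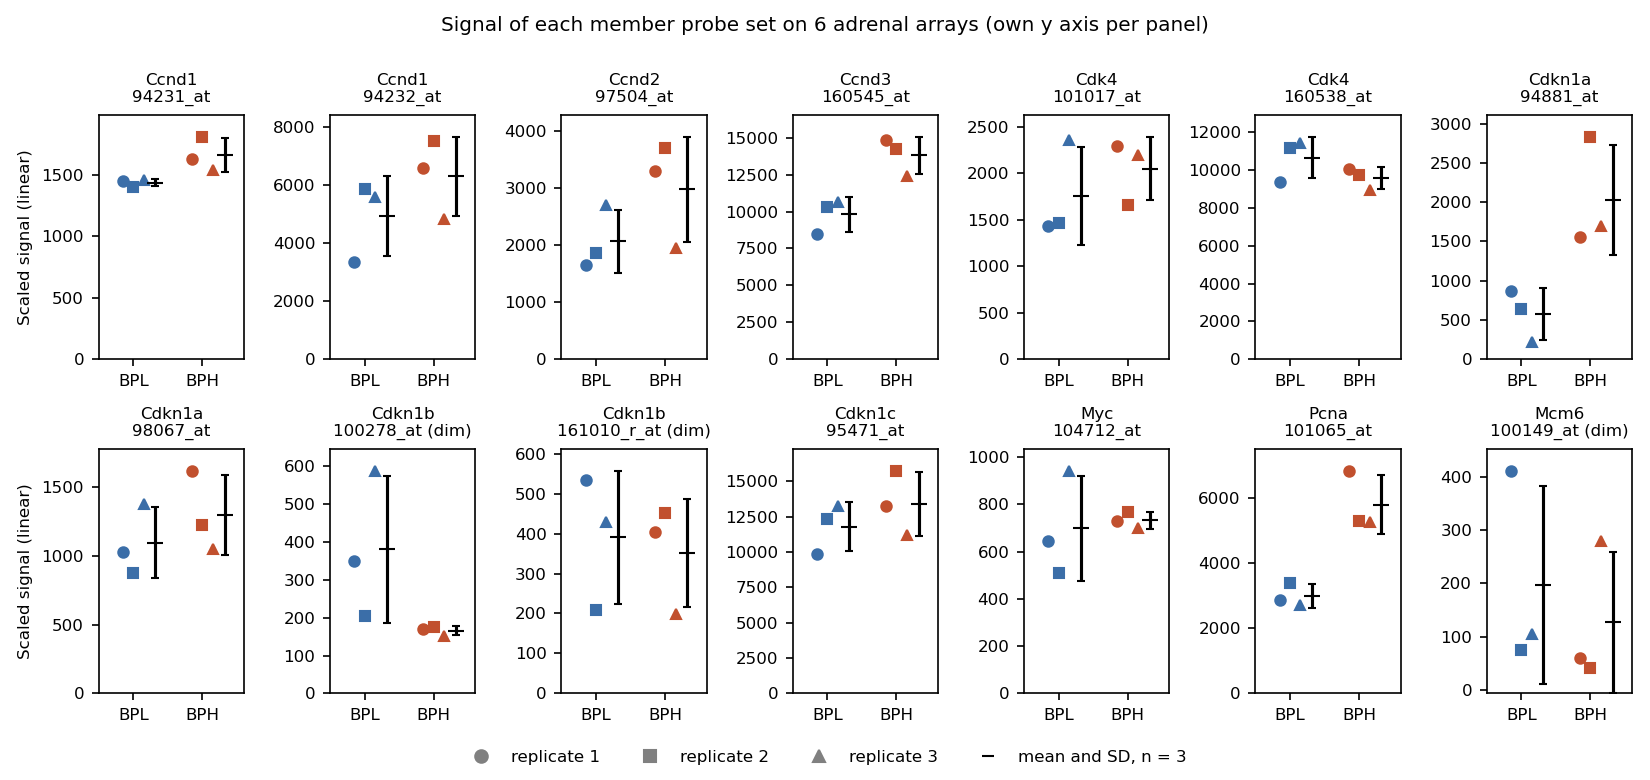
Scaled linear signal of the 14 member probe sets, each with its own y axis, on 3 BPL (blue) and 3 BPH (red) arrays, with the replicate as the marker shape and the mean and SD (n = 3) in black. Pcna and Cdkn1a 94881_at separate the strains by the widest margin among the tested probe sets, while Cdkn1a 98067_at, Cdkn1c and Myc overlap.

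Ccnd3, the cyclin with the highest rank by p, was brighter in every BPH array but did not pass after adjustment. Its signals were 8480, 10293 and 10676 in BPL replicates 1, 2 and 3 and 14823, 14201 and 12425 in the BPH arrays. The groups did not overlap, with means of 9816 ± 1173 and 13816 ± 1245 (SD, n = 3). The log2 difference was 0.49 ± 0.16 (SE), with an unadjusted 95% interval from 0.12 to 0.86 and a limma adjusted p of 0.15 (Benjamini-Hochberg). With every array and processing alternative tried the difference stayed between 0.32 and 0.56 and was not called.

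Ccnd2, a D cyclin often regulated by cAMP and hormones, varied as much within strains as between them. Its signals were 1656, 1854 and 2695 in BPL and 3296, 3699 and 1942 in BPH. BPH replicate 3 lay among the BPL arrays, and BPL replicate 3 was the highest of its strain. The log2 difference was 0.47 ± 0.26 (SE), with an interval from -0.14 to 1.07 and a limma adjusted p of 0.35, and it was 0.09 when both BPL arrays with the highest muscle signals were left out.

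Both probe sets of Ccnd1, the D cyclin most closely tied to mitogen signalling, had small positive differences. Probe set 94231_at read 1450, 1403 and 1457 in BPL and 1627, 1811 and 1541 in BPH, so the groups did not overlap, although the shift was small. Its log2 difference was 0.18 ± 0.14 (SE, limma adjusted p = 0.50), with an interval from -0.15 to 0.51. Probe set 94232_at read 3350, 5854 and 5569 in BPL and 6569, 7486 and 4805 in BPH, with BPH replicate 3 below 2 of the BPL arrays. Its log2 difference was 0.36 ± 0.25 (SE, limma adjusted p = 0.45), with an interval from -0.22 to 0.93. The within-array log2 ratio of the 2 probe sets differed between strains by -0.18 (2-sided exact permutation test, p = 0.6).

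The 2 probe sets of Cdk4, the kinase that D cyclins activate, leaned in opposite directions and neither passed. Probe set 160538_at, at the 93.5th percentile of brightness, read 9403, 11174 and 11433 in BPL and 10070, 9743 and 8933 in BPH. Its log2 difference was -0.15 ± 0.15 (SE, limma adjusted p = 0.61), with an interval from -0.50 to 0.20. Probe set 101017_at read 1429, 1464 and 2358 in BPL and 2290, 1659 and 2201 in BPH. It gave 0.23 ± 0.22 (SE, limma adjusted p = 0.59), and in both the strains overlapped. A doubling or halving of Cdk4 lies outside the intervals of both probe sets, -0.50 to 0.20 and -0.27 to 0.73.

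The shift of a cyclin was also set against that of its kinase. The log2 ratio of Ccnd3 to the brighter Cdk4 probe set within each array was -0.15, -0.12 and -0.10 in BPL and 0.55, 0.53 and 0.47 in BPH. Only its change between strains carries meaning, since the probe sets differ. That change was 0.64, with SDs of 0.024 in BPL and 0.044 in BPH, and the groups did not overlap (2-sided exact permutation test, p = 0.1, and 0.1 after adjustment over 2 such ratios, where no smaller p is possible with 3 arrays a strain). This ratio was chosen after its values were seen. Against the other Cdk4 probe set, 101017_at, which leaned up by 0.23, the change was smaller and the strains overlapped. The size of the change thus depends on the Cdk4 probe set used.

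Cdkn1a, the p53- and stress-responsive inhibitor, gave different answers from its 2 probe sets. Probe set 94881_at read 870, 640 and 214 in BPL and 1552, 2834 and 1699 in BPH. Every BPH array lay above every BPL array, and BPL replicate 3 was far below its strain. The means were 575 ± 333 and 2028 ± 702 (SD, n = 3), and the log2 difference was 1.58 ± 0.36 (SE), with an interval from 0.77 to 2.39 and a limma adjusted p of 0.047. It was also just inside the threshold in rank, at 291 of the 306 probe sets called. The BPL mean of 94881_at alone lay under the brightness limit of 9.68 on the log2 scale. This probe set was thus tested only through its BPH signals.

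Probe set 98067_at of the same gene read 1029, 873 and 1377 in BPL and 1616, 1226 and 1050 in BPH, so the strains overlapped. Its log2 difference was 0.21 ± 0.21 (SE, limma adjusted p = 0.59), with an interval from -0.26 to 0.68 that does not reach the lower bound of the other probe set. The within-array log2 ratio of the first to the second was -0.20, -0.35 and -1.92 in BPL and -0.05, 1.09 and 0.60 in BPH. It differed by 1.37 between strains (2-sided exact permutation test, p = 0.1, the smallest possible, and adjusted p = 0.27 over the 4 genes with 2 probe sets). With the mean of both probe sets in place of either, the Cdkn1a difference was 0.90 (limma adjusted p = 0.034). That value comes from a separate fit on the mean of each gene's probe sets. It merges probe sets that differ, so it is no further support for either. Which stretch of the transcript each probe set reads is not given in the sources used here.

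The call of 94881_at was kept in 2 of the 6 settings that left out 1 array, and was lost with other scalings. Settings without an array have fewer arrays to test with. Without BPL replicate 2, BPH replicate 1 or BPH replicate 3 the difference was larger than the 1.58 of all 6 arrays. Leaving out BPL replicate 2 (1.69, limma adjusted p = 0.078), BPH replicate 1 (1.73, 0.095), BPH replicate 2 (1.33, 0.17) or BPH replicate 3 (1.68, 0.10) ended the call. So did the authors' scaling (1.48, limma adjusted p = 0.083) and quantile normalization (1.53, 0.066). The difference was smallest, at 1.18 (limma adjusted p = 0.047), without BPL replicate 3. That array read 214, close to the 203 added before logs were taken. The difference was 2.41 without BPL replicates 1 and 2, where replicate 3 was the only BPL array left.

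Cdkn1b, the inhibitor that keeps resting cells out of the cycle, was dim in both strains. Probe set 100278_at read 350, 203 and 587 in BPL and 169, 175 and 152 in BPH. All BPH arrays lay below all BPL arrays, and under the value of 203 that was added before logs were taken, so the log2 difference of -0.61 understates the ratio of signals, and it was not tested across the table. It was -0.36 without BPL replicate 3 and -1.13 without BPL replicates 1 and 2. The exact permutation test over arrays gave p = 0.1, the smallest possible. Probe set 161010_r_at read 534, 208 and 429 in BPL and 405, 452 and 199 in BPH, with overlapping strains and a log2 difference of -0.09 (2-sided exact permutation test, p = 0.7), whose sign turned without BPL replicate 1 (0.094) or BPH replicate 3 (0.13).

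Cdkn1c, the imprinted inhibitor, was bright, with overlapping ranges in the 2 strains. Its signals were 9837, 12292 and 13223 in BPL and 13223, 15722 and 11196 in BPH, and BPH replicate 3 lay below 2 BPL arrays. The log2 difference was 0.18 ± 0.19 (SE, limma adjusted p = 0.62), with an interval from -0.25 to 0.61, which leaves out a doubling.

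**Figure D2:**
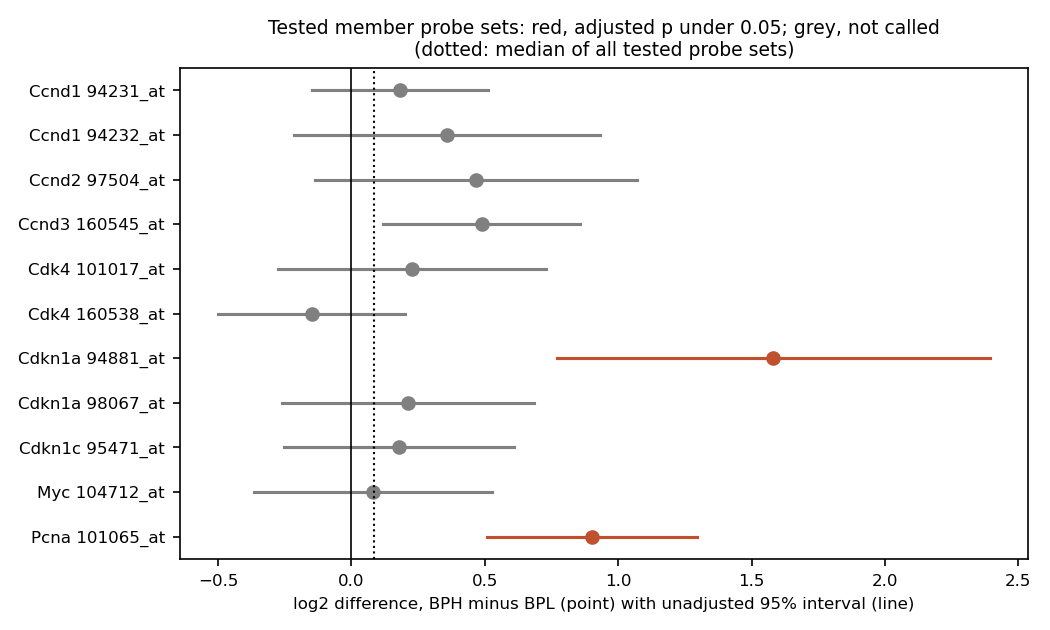
Log2 difference (BPH minus BPL, x axis) of the 11 tested member probe sets, with the unadjusted 95% interval as a line, the 2 called probe sets in red and the median of all tested probe sets (0.08) dotted. Intervals of Pcna (0.51 to 1.30), Cdkn1a 94881_at (0.77 to 2.39) and Ccnd3 (0.12 to 0.86) lie above 0.

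Myc, a transcription factor that drives cell growth and is itself transcribed quickly after stimulation, read 645, 507 and 941 in BPL and 728, 769 and 697 in BPH. The 3 BPH values lay inside the BPL range. The log2 difference was 0.08 ± 0.20 (SE, limma adjusted p = 0.84), with an interval from -0.37 to 0.53. Its sign turned with the authors' scaling (-0.01) and without BPL replicate 2 (-0.08). Of 20 tested immediate early genes, the class in which Myc is often counted, 14 were called higher and 0 lower, with a median log2 difference of 1.90, against 3.32% higher and 0.918% lower among all 5664 tested genes at 1 probe set per gene. Fos (3.47), Junb (3.41), Egr1 (3.16) and Nr4a2 (3.06), all transcription factors of that class, had the largest log2 differences in that list.

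Pcna, the clamp, was the member with the lowest p. Its signals were 2875, 3399 and 2712 in BPL and 6836, 5288 and 5259 in BPH. The strains were well apart, and the lowest BPH signal was 1.55 times the highest BPL signal. The means were 2996 ± 359 and 5795 ± 902 (SD, n = 3), and the log2 difference was 0.90 ± 0.17 (SE), with an interval from 0.51 to 1.30 and a limma adjusted p of 0.026. The size held when each array was left out in turn, at 0.78 to 0.99, but the call was lost in each of those 6 settings, with limma adjusted p from 0.053 to 0.090. Without BPL replicates 1 and 2 the difference was 1.03 (limma adjusted p = 0.14).

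Mcm6, the helicase subunit, was near the bottom of the range, at percentile 12.2 of brightness, and was not tested. It read 412, 74.3 and 105 in BPL and 59.5, 40.6 and 279 in BPH, so each strain had 1 array well above the other arrays. The log2 difference of -0.26 was small beside this spread (2-sided exact permutation test, p = 0.5), and its sign turned without BPL replicate 1 (0.10).

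Other replication and S phase genes did not pass the test. Of 48 listed, 44 were on the array, 17 were too dim and 27 were tested. By limma 0 of the 27 were called, against 4.24% of all tested genes, and 2 had an unadjusted p under 0.05. They were the polymerase subunit Pold2, at -1.03 ± 0.32 (SE, limma adjusted p = 0.13), and the topoisomerase Top1, at 1.01 ± 0.32 (limma adjusted p = 0.13), both with overlapping strains. Top1 was called without BPL replicate 3 (1.40, limma adjusted p = 0.0097) and Pold2 without BPH replicate 3 (-1.41, 0.024). Over the 17 alternatives the adjusted p ran from 0.0097 to 0.88 for Top1 and from 0.024 to 0.43 for Pold2. The median difference over these genes was 0.05, against 0.09 for all tested genes, and 16 of the 27 differences (59.3%) were above 0, against 61.6%. Pcna minus the mean of these 27 genes within each array was 1.12, 1.09 and 0.87 in BPL and 2.09, 1.80 and 1.71 in BPH on the log2 scale. This ratio was chosen after the values of Pcna were seen, and the mean of the 27 genes differed by 0.06 between strains, so this gap repeats the difference of Pcna itself and is no further test.

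Among 21 tested G1/S regulators outside the 10 members, 1 was lower and 0 were higher, which at 4.76% is close to the 4.24% called among all tested genes. The called gene was Rb1, the retinoblastoma protein that cyclin D and CDK4 phosphorylate. Its BPH mean alone lay under the brightness limit of 9.68 on the log2 scale, so it was tested only through its higher BPL signals. Rb1 read 950, 1163 and 1098 in BPL and 694, 487 and 426 in BPH, with no overlap, and fell by 0.80 ± 0.18 on the log2 scale (SE, limma adjusted p = 0.048). That call was lost when any single array was left out (-0.94 to -0.69, limma adjusted p from 0.055 to 0.18) and with several other settings, quantile normalization (-0.79, limma adjusted p = 0.060) among them. The list median was 0.09, and 6 of the 21 had an unadjusted p under 0.05, against 1159 of all 5664 tested genes. Besides Rb1 they were Ccng2, E2f1 and Ccne1, with positive differences, and Ccng1 and Cdk7, with negative ones, all uncalled. Of 17 tested genes of G2 and mitosis, 1 (5.88%) was lower and 0 higher, again near that share: the centromere protein Cenpc1 fell by 0.96 ± 0.18 (limma adjusted p = 0.027), from 1179 ± 148 to 514 ± 130 (SD, n = 3), and that call too was lost without any single array (-1.08 to -0.81, limma adjusted p from 0.053 to 0.089). The BPH mean of Cenpc1 alone also lay under the brightness limit, so Cenpc1 too was tested only through its BPL signals. The median of the G2 and mitosis list was -0.09, and 19 of its 36 genes on the array were too dim to test.

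Of 14 tested p53 target genes other than Cdkn1a, 2 (14.3%) were higher and 0 lower, against 3.32% higher and 0.918% lower among all tested genes. Btg2, an antiproliferative gene that is also in the immediate early list, read 4644, 5541 and 5758 in BPL and 19026, 26515 and 18042 in BPH, and rose by 1.94 ± 0.19 (SE, limma adjusted p = 0.0012). Plk2, a stress-induced kinase, rose by 1.19 ± 0.25 (limma adjusted p = 0.036), a call kept only without BPL replicate 3 among the 6 settings that left out 1 array (0.90 to 1.37, limma adjusted p from 0.047 to 0.11). The growth arrest gene Gadd45a was at 0.81 ± 0.19 (limma adjusted p = 0.058), and cyclin G1 (Ccng1) at -0.53 ± 0.21 (limma adjusted p = 0.21). Over the 14 genes the median was 0.19, and 9 of the 14 differences (64.3%) were above 0, against 61.6% of all tested genes.

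Of 26 tested Myc target genes 3 (11.5%) were higher and 0 lower, against the same shares of 3.32% and 0.918%. Slc3a2, the heavy chain of amino acid transporters, rose by 1.30 ± 0.20 (SE, limma adjusted p = 0.010), the mitochondrial co-chaperonin Hspe1 by 0.82 ± 0.17 (limma adjusted p = 0.036) and the nucleolar protein Nop58 by 0.77 ± 0.17 (limma adjusted p = 0.043). The suffix of the Nop58 probe set (_f_at) marks probes that may also read related genes, so that value is uncertain. Without BPH replicate 1, or without BPH replicate 2, 0 genes of the list were called by limma, with Slc3a2 at adjusted p of 0.053 and 0.051. Without BPL replicate 1, BPL replicate 2 or BPH replicate 3, 1 was called (Slc3a2). The list median was 0.14. Of 8 tested partners and antagonists of Myc, 0 were called by limma and 0 had an unadjusted p under 0.05, and the one with the largest difference was Mycl, a Myc relative, at -0.70.

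**Figure D3:**
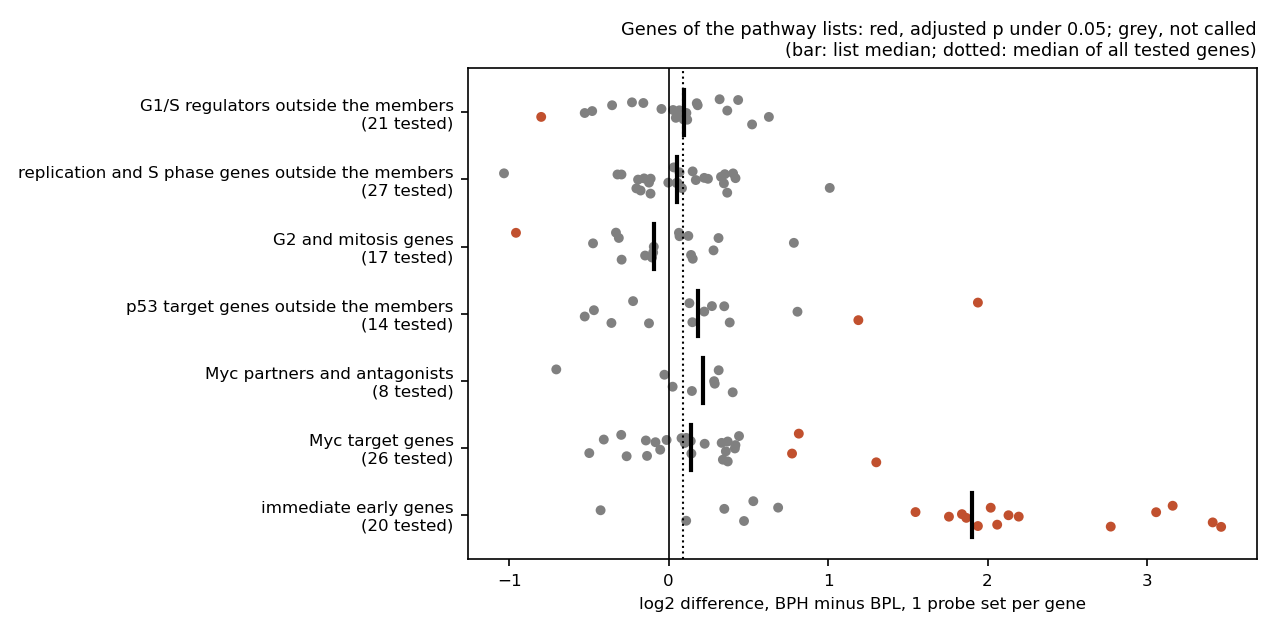
Log2 difference (BPH minus BPL, x axis) of each tested gene of 7 lists around the members, 1 probe set per gene, with called genes in red, list medians as bars and the median of all tested genes (0.09) dotted. Only the immediate early list has its median (1.90) away from the dotted line by more than 1, while the replication list holds 0 called genes.

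Within each strain the members tended to be low on the same array. BPL replicate 1 had the lowest BPL value in 6 of the 11 tested probe sets and BPL replicate 3 the highest in 8. BPH replicate 3 had the lowest BPH value in 9 of 11. For Pcna and Cdkn1a 94881_at, the called probe sets, the lowest BPL array was instead replicate 3. Ccnd1, Cdk4 and Cdkn1a enter these counts with a pair of probe sets each. The same counts over all tested probe sets are not given here, so the pattern may not be particular to the members.

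**Figure D4:**
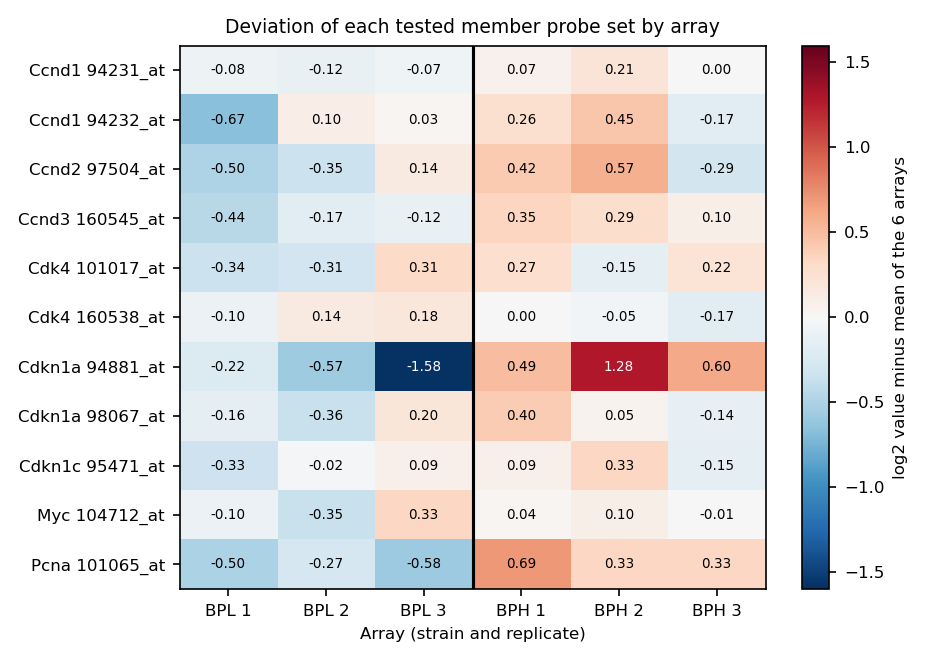
Log2 value minus the mean of the 6 arrays for each tested member probe set (rows) and array (columns), coloured from blue (lower) to red (higher). BPL replicate 3 is at -1.58 for Cdkn1a 94881_at and BPH replicate 2 at 1.28, the extremes of the plot.

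Signals of several cell type marker lists differed with strain and between these arrays. The adrenal cortex gene Star, which carries cholesterol into mitochondria, was bright on all 6 arrays (75933 to 105639), as was the medullary enzyme gene Th (12088 to 19621 in BPL and 30381 to 47889 in BPH). Summed signals of 10 cortex markers were 561474, 693360 and 731182 in BPL and 802122, 821884 and 701389 in BPH, so BPL replicate 1 and BPH replicate 3 were lowest in their strains. Of 10 tested cortex markers 1 was called higher. Among all tested genes 3.32% were called higher and 0.918% lower, the shares to set beside this count and those of the other marker lists. Summed signals of 11 chromaffin markers had the same low arrays, at 181054, 213549 and 275834 in BPL and 337750, 406202 and 301340 in BPH, and 4 of 9 tested were called higher, Th among them (limma adjusted p = 0.023). The signals of 14 skeletal muscle markers summed to 178235, 425609 and 35997 in BPL and 11088 to 12022 in BPH, with 7 of 12 tested called lower. Among them the skeletal muscle actin Acta1 read 12156 to 96330 in BPL and 125 to 376 in BPH. The 10 fat markers summed to 194118 to 204725 in BPL and 150408 to 210286 in BPH. Of 9 tested, 1 was called higher and 0 lower. The called one was Dio2, an enzyme that activates thyroid hormone (log2 difference 1.16, limma adjusted p = 0.043), and the brown fat uncoupling gene Ucp1 read 48780 to 64979 and 27118 to 46044 and did not pass (limma adjusted p = 0.097). Blood and immune markers (14 genes) summed to 65804 to 99780 in BPL and 89862 to 105802 in BPH, and endothelial markers (8 genes) to 16432 to 24128 and 24010 to 27241, with 0 called by limma in either list. No signal in the table was at 0. The 3' to 5' log2 ratio of the Gapdh control probe sets, a sign of RNA quality, averaged -0.0014 ± 0.050 over BPL arrays and 0.168 ± 0.074 over BPH arrays (SD, n = 3). For Actb the ratio averaged 0.854 ± 0.057 and 1.08 ± 0.15. In both controls every BPH array lay above every BPL array (2-sided exact permutation test, p = 0.1 for each, the smallest possible). The part of these differences in the results for Pcna, Cdkn1a, Ccnd3 and Rb1 was not tested.

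The genes whose log2 values ran most like those of the 2 called members over the 6 arrays are given as a description. For Pcna they were Kitl, the ligand of the receptor Kit (Pearson r = 0.993), Nfe2l2, the transcription factor NRF2 (r = 0.988), and the aldehyde dehydrogenase Aldh1a7 (r = 0.986). For Cdkn1a 94881_at they were Naa35, a subunit of an acetyltransferase of protein N termini (r = 0.980), Uimc1, a ubiquitin-binding protein of DNA repair (r = 0.977), and Atf4, a transcription factor of the amino acid stress response (r = 0.964). All 6 genes were higher in every BPH array, so strain itself makes up part of each r.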

How the data were processed

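Total RNA of adrenal glands was hybridised to Affymetrix mouse arrays. The authors deposited a linear intensity for each probe set on each array; the software was MAS5, per the submitters' processing notes, with version and settings not named there. Array medians differed by 21.0% (945 to 1144), above a tolerance of 10%, so arrays were scaled to their mean, 1040. Values were log2(signal + 203), 203 being the 20th percentile, which understates changes of dim genes. The 66 control probe sets and the dimmest 40% of the others were not tested, leaving 7453. Differences were tested 2-sided by lmFit and eBayes of limma 3.58.1 in R 4.3.3 over all 6 arrays, with Benjamini-Hochberg adjustment over the whole table and a threshold of 0.05. The fit was also run on simulated data, with noise drawn independently for each probe set and array. That run cannot show how differences shared across an array act on the calls. The labels name no batch, and the number of arrays limits the precision.

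Members and lists were chosen with earlier results of these data known. Named genes were all members, up to 4 called genes per list (or the one with the largest difference), Acta1, Ucp1, Star and Th, and the 3 genes most like each called member. Uncalled list genes with values were chosen after these were seen. Lists used the brightest probe set of each gene. No pair of arrays shared more than 1 identical value.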

Additional observations from a re-analysis of the deposited data

How the results depend on the processing

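The count of called probe sets was 306 (237 higher, 69 lower, 77.5% higher). It was 294 with the authors' scaling (195 and 99, 66.3% higher), 269 after quantile normalization (181 and 88, 67.3% higher), 127 with no filter, 101 to 375 when each array was left out in turn, and 87 without BPL replicates 1 and 2. Of the 2 called member probe sets, 1 was called with the authors' scaling, quantile normalization, centring, the lower pseudocount or the floor (Pcna in each). It was also 1 with the stricter filter, where Cdkn1a 94881_at was too dim to be tested, and 0 with no filter. Leaving out each array gave 0 to 1, and leaving out BPL replicates 1 and 2 gave 1 (Cdkn1a). Both were called with the higher pseudocount and the trended, robust variance. With the replicate number as a block 239 probe sets and 1 member probe set were called, Pcna at an adjusted p of 0.058 and Cdkn1a 94881_at at 0.026 (limma). Same-numbered arrays did not deviate together (r of -0.058, -0.054 and -0.18), so no pairing was seen. With 3 arrays a strain this check cannot exclude one.

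Among tested members, the differences that changed sign, none of them called, were Myc with the authors' scaling (-0.0098), without BPL replicate 2 (-0.076, in a range up to 0.27 when each array was left out) and without BPL replicates 1 and 2 (-0.30), and, in that last setting, Cdk4 101017_at (-0.20) and Cdkn1a 98067_at (-0.093). Among untested members, Mcm6 turned positive without BPL replicate 1 (0.10) and without BPL replicates 1 and 2 (0.025), and Cdkn1b 161010_r_at without BPL replicate 1 (0.094) or BPH replicate 3 (0.13). The cause was not tested. Dim signals limit Cdkn1b and Mcm6.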
